A study of Mus musculus with 4 samples.

Results

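Proteasome genes were taken as all protein-coding mouse genes whose symbol is Psma, Psmb, Psmc, Psmd, Psme, Psmf or Psmg followed by a digit. This gave 50 of the 50600 genes counted, or 50 of 21764 protein-coding genes. Of these, 49 encode subunits, activators, an inhibitor or assembly chaperones of the proteasome. Psmc3ip meets the same rule by its name alone, since it encodes a meiotic recombination factor that binds the Psmc3 product, and it is reported apart from the subunits. Pseudogenes named after members (Psmb5-ps, Psmb6-ps, Psmb6-ps2 and Psmb7-ps2) were not members and had 0 counts.

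The RNA came from primary T-helper 2 (Th2) cells of the mouse strain C57BL/6NJ, CD4 T cells of the helper subset that makes interleukins 4, 5 and 13. All libraries formed a single group with no control, no treatment and no other genotype given. The labels give sex as not collected and age as unknown, name a document on CD4 T cell differentiation, and give every library its own biosample but a common donor. The p-values therefore reflect how far these samples vary, and that variation may be technical. Replicates 1, 3 and 4 held 2388255, 1929880 and 1713199 gene counts and carry the results, while replicate 2 held 5016.

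The proteasome is the barrel-shaped protease that destroys ubiquitin-tagged proteins. Its 20S core is built of outer rings of alpha subunits and inner rings of beta subunits, of which the beta1, beta2 and beta5 sites cut peptide bonds. The 19S regulatory particle caps the core, and its ATPases unfold substrates while its non-ATPase subunits bind and remove ubiquitin. In lymphocytes and in cells exposed to interferon-gamma the catalytic subunits are exchanged for Psmb9, Psmb10 and Psmb8. The resulting immunoproteasome, often with the PA28 activator, makes peptides suited to MHC class I, and Psmb8 and Psmb9 lie in the MHC region beside the peptide transporter genes Tap1 and Tap2.

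A count here is the number of fragments assigned to the annotated strand of a gene's exons, and a level is that count per exonic length, scaled to a common total in each library (TPM). Whether the strand setting of the counting fits the library kit was not tested, so the RNA behind a gene's own-strand count need not be that gene's own. Genes with exons on the other strand of another gene held 90.74%, 94.22% and 91.33% of all counts in replicates 1, 3 and 4. Of the 50 members, 12 have such opposite-strand exons (24%, against 22.06% of protein-coding genes), and 38 have none. Levels below are statements on the annotated strand, and intervals cover counting error only, since fragments carried no molecular identifiers. In bulk RNA, fewer cells of a type and less RNA per cell cannot be told apart.

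Of the T cell markers 6 of 6 lay above 1 TPM, and of the Th2 markers 5 of 5, where 43.1% of all tested genes did. The T cell marker Cd3e and the Th2 markers Gata3 and Il5 have exons opposite genes with more counts than their own. Il4 had 65, 80 and 59 counts and Il13 had 194, 31 and 117 in replicates 1, 3 and 4. The B cell genes Cd79b and Ms4a1, the myeloid genes Adgre1, Flt3 and Itgax, the thymic epithelial genes Foxn1 and Krt8 and the testis genes Dazl, Ddx4 and Tnp1 had 0 counts. Exceptions above 1 TPM were Cd79a of 4 B cell markers, Csf1r and Cd68 of 6 myeloid markers, Prss16 of 5 thymic markers and Prm1 of 4 testis markers. The summed marker levels ranged over replicates 1, 3 and 4 from 2.05 to 9.84 TPM for B cells and from 137.5 to 156.3 TPM for myeloid cells. They ranged from 4.25 to 6.41 TPM for thymic epithelium and from 15.3 to 25.2 TPM for testis, against 109.3 to 170.2 TPM for T cells. Most of the myeloid sum was Csf1r, with 140 ± 9.75 TPM (SD, n = 3), which has exons opposite Hmgxb3. The largest part of the T cell sum was likewise a gene with opposite-strand exons. This was Cd247, opposite Pou2f1, with 97.4 ± 8.81 TPM (SD, n = 3). The part of the B cell, myeloid, thymic and testis genes' RNA in the results below was not tested.

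Members were detected widely and at moderate levels. Together they held 3587, 2008 and 2289 counts in replicates 1, 3 and 4, and 47 of 50 had at least 3 counts over these libraries. The mean level of a member had a median of 4.81 TPM, against 0.172 TPM over all protein-coding genes. With limma, 34 of 47 tested members lay above 1 TPM at an adjusted p under 0.05, where 43.1% of all tested genes did. Only Psmg3 lay below 1 TPM, where 8.31% of all tested genes did, and that call rested on 3 pooled counts. It was lost without replicate 3 and with no filter on low counts. Without replicate 1 or replicate 4 the gene fell under the 3-count filter and was not tested. Among members without opposite-strand exons 23 of 35 tested were above (65.71%, against 26.69% of such protein-coding genes), and among those with them 11 of 12 (91.67%, against 56.35%). The share above 1 TPM was thus larger in members than in protein-coding genes in both strand classes, a description with no test of the list.

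**Figure D1:**
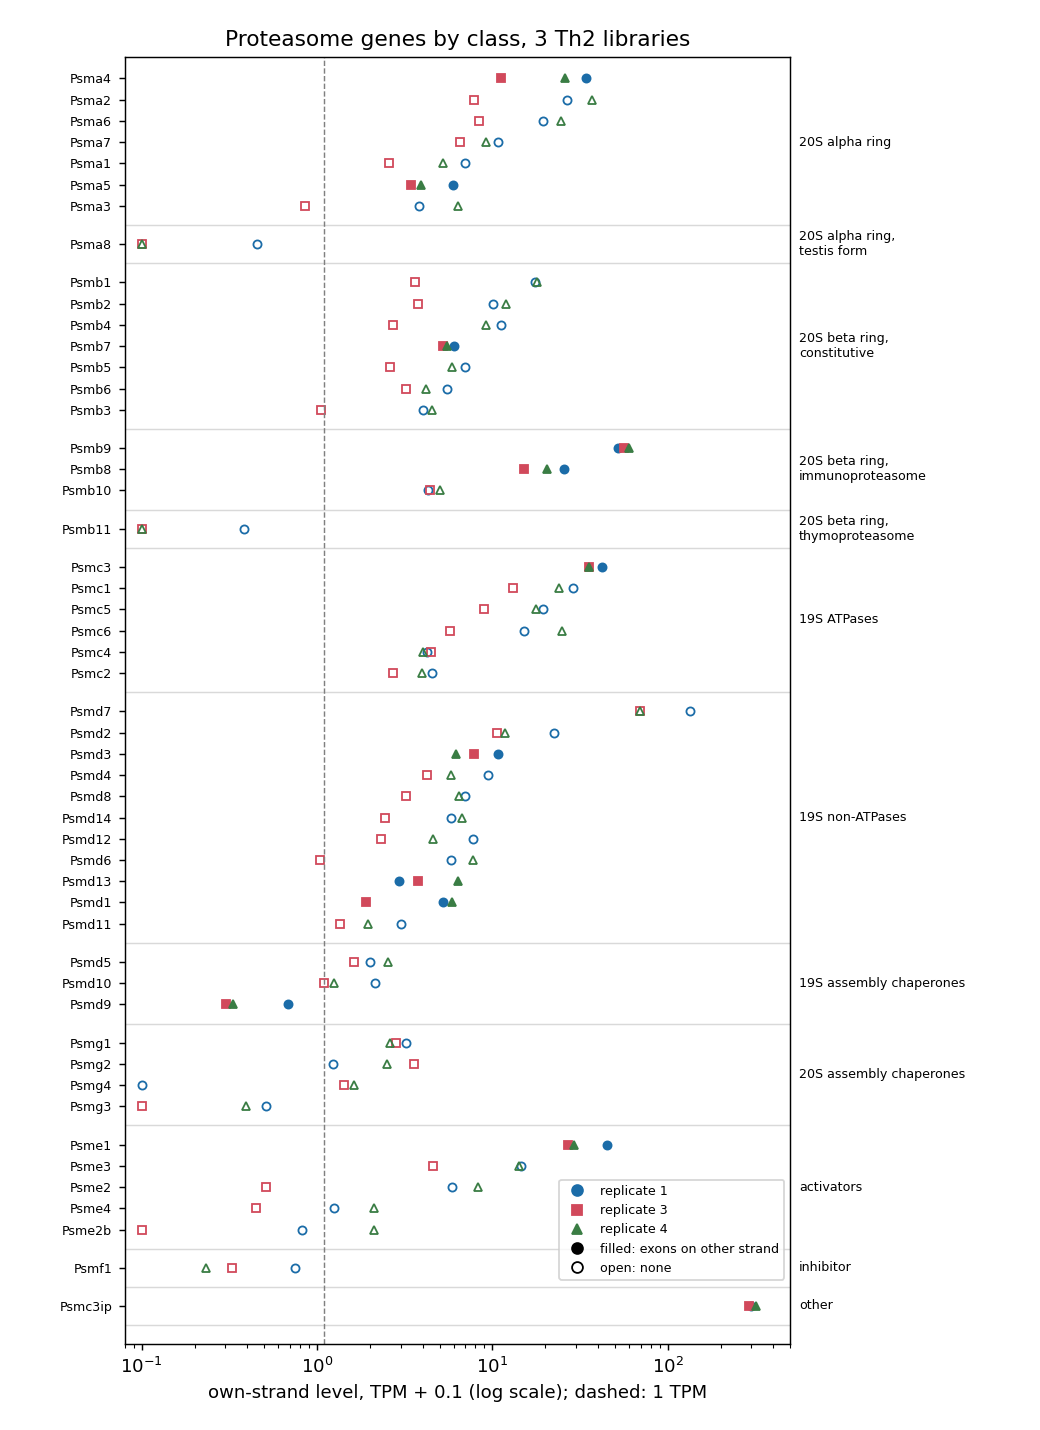
Levels of the 50 members on their annotated strand (TPM + 0.1, log axis) in replicates 1, 3 and 4, ordered by class and by mean level, with filled symbols for members that have exons on the other strand of another gene. Psmc3ip and Psmd7 lie farthest right at means of 302 and 90.5 TPM, most core and 19S subunits lie right of the dashed 1 TPM line, and replicate 3 is often the lowest library.

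At the catalytic sites each immunoproteasome gene was set beside its constitutive counterpart. Psmb9 (beta1i) and Psmb8 (beta5i) lay above Psmb6 and Psmb5 in each of 3 libraries, whereas Psmb10 (beta2i) lay slightly below Psmb7 in each. The promoters of Psmb9, Psmb6, Psmb8 and Psmb5 are shown because these genes form the 2 catalytic pairs with the larger level ratios and because Psmb9 and Tap1 share promoter bases. The windows run from 250 bases before to 50 bases after the RefSeq start site (GRCm38.p6), 5′ to 3′ on the gene's strand. They cover chr17:34187281-34187580 on the minus strand for Psmb9, chr11:70525107-70525406 on the plus strand for Psmb6, chr17:34197945-34198244 on the plus strand for Psmb8 and chr14:54617946-54618245 on the minus strand for Psmb5. Capitals mark the motif matches described after them.
Psmb9: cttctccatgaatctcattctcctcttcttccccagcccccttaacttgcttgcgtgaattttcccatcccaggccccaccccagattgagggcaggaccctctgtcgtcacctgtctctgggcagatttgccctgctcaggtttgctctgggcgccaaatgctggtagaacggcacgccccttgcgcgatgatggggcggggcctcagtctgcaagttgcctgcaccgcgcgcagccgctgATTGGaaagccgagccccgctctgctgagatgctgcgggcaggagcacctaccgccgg
Psmb6: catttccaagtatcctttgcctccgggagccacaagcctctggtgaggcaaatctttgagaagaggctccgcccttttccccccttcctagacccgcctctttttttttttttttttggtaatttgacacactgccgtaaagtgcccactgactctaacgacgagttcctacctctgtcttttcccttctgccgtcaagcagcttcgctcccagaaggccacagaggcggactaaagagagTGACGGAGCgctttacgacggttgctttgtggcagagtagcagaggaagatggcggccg
Psmb8: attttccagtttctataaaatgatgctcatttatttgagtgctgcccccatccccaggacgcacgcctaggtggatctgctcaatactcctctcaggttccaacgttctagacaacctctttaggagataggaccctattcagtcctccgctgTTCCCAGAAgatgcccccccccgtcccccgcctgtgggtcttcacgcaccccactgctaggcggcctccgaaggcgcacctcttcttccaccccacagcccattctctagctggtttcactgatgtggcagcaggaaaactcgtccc
Psmb5: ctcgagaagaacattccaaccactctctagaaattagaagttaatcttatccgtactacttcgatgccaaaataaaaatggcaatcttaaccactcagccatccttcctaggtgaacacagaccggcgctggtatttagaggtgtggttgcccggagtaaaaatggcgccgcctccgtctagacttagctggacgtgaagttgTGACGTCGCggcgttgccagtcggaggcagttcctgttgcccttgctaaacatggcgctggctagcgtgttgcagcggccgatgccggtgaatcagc

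Of the 50 members, 42 had such a window. Each motif was searched on both strands, and none of the 4 overlaps another in these windows. Capitals in Psmb6 and Psmb5 mark the core letters of the antioxidant response element, TGACNNNGC, which 6 of 42 members held (14.3%) against 12.4% of all 32851 windows. Capitals in Psmb8 mark an interferon-gamma activated site, TTCNNNGAA, held by Psmb8, Psmd2 and Psmg1 (7.14%, against 8.3%). Capitals in Psmb9 mark a CCAAT box on the other strand, and 15 members held that motif (35.7%, against 37.4%). The interferon-stimulated response element core (GAAA, any 2 bases, GAAA) was found in Psmb3, Psmd4, Psmd9, Psme1 and Psmg4 (11.9%, against 3.44%). A match describes letters in the window and shows no binding. The Psmb9 window shares 275 of its 300 bases with that of Tap1 on the other strand, since their RefSeq start sites lie 226 bases apart.

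Psmb9, the immunoproteasome beta1 subunit, had 319, 282 and 259 counts in replicates 1, 3 and 4, or 52.2, 56.3 and 59.7 TPM. Its constitutive counterpart Psmb6 had 17, 8 and 9 counts, or 5.44, 3.12 and 4.06 TPM. The levels did not overlap, and the pooled ratio of Psmb9 to Psmb6 was 12.9 (exact 95% interval 9.19 to 18.8). On the log2(TPM + 0.1) scale the difference was 3.74 ± 0.45 (SD, n = 3), higher in 3 of 3 libraries, with p = 0.25 in an exact permutation test that flips the signs of the library differences (two-sided). That p is the smallest that 3 libraries can give, and it stayed 0.25 after adjustment over the 3 pairs.

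Psmb8, the beta5i subunit, had 116, 56 and 66 counts, or 25.4, 14.9 and 20.4 TPM. Psmb5, the constitutive beta5 subunit with the chymotrypsin-like activity, had 10, 3 and 6 counts, or 6.87, 2.51 and 5.81 TPM. Psmb8 stood higher in 3 of 3 libraries, with a pooled ratio of 3.99 (2.50 to 6.74), a log2 difference of 2.06 ± 0.40 (SD, n = 3) and p = 0.25 in the same exact permutation test.

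Psmb10, the beta2i subunit, had 12, 10 and 10 counts, or 4.21, 4.28 and 4.95 TPM. Psmb7, the constitutive beta2 subunit with trypsin-like activity, had 34, 24 and 22 counts, or 5.95, 5.12 and 5.42 TPM. Psmb10 was lower in 3 of 3 libraries by a small margin, with a log2 difference of -0.29 ± 0.18 (SD, n = 3) and p = 0.25 in the exact permutation test. The pooled ratio was 0.803, and its interval of 0.515 to 1.22 includes 1. Strand classes differ within the pairs: Psmb9, Psmb8 and Psmb7 have opposite-strand exons, and Psmb6, Psmb5 and Psmb10 have none. In all 3 pairs the gene with opposite-strand exons was the higher one, so the strand class and the subunit form cannot be told apart in any of them.

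**Figure D2:**
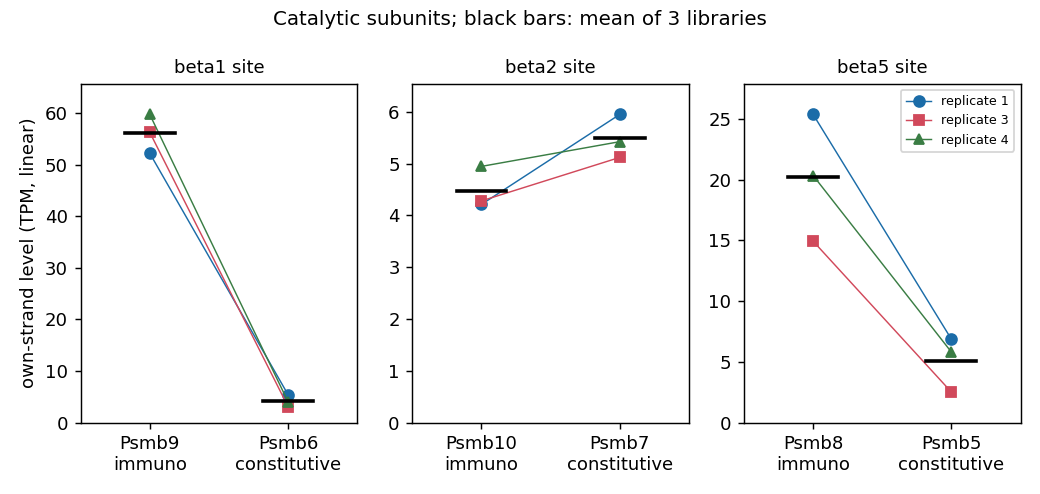
Levels (TPM, linear axes from 0, one scale per panel) of the immunoproteasome gene on the left and the constitutive gene on the right of each catalytic site, with a line per library and a black bar at the mean of 3 libraries. Psmb9 at 52.2 to 59.7 TPM stands clear of Psmb6 at 3.12 to 5.44 TPM, Psmb8 stands above Psmb5, and Psmb10 and Psmb7 both lie between 4.21 and 5.95 TPM.

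The tissue-restricted core subunits were under the floor of 3 counts pooled over replicates 1, 3 and 4. Psmb11, the thymoproteasome subunit of cortical thymic epithelium, had 2, 0 and 0 counts in replicates 1, 3 and 4. Psma8, the alpha subunit of testis, had 1, 0 and 0. Within a single library 3 counts correspond to 1.256, 1.555 and 1.751 CPM (counts scaled to library totals). Both genes thus fell under the chosen floor, and counts this low do not decide whether their RNA was present.

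In the alpha ring, which gates entry to the core, 6 of 7 members were above 1 TPM. Over all tested genes 43.1% were, the share to set beside this class and those below. Mean levels in the alpha ring ran from 3.57 TPM for Psma3 to 23.7 TPM for Psma4, with a median of 8.73 TPM. The class had 343, 107 and 236 counts in replicates 1, 3 and 4. Psma4 had 135, 36 and 73 counts, Psma2 had 42, 10 and 41, and Psma6 had 40, 14 and 36. In all 3 the lowest library was replicate 3, and their means were 23.7 ± 11.7, 23.7 ± 14.7 and 17.4 ± 8.34 TPM (SD, n = 3). These genes were measured in the same libraries, so that spread does not measure differences between them, which were not tested. Psma3 had 24, 4 and 29 counts and did not pass the level test (adjusted p = 0.12, limma).

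In the constitutive beta ring 6 of 7 members were above 1 TPM, with mean levels from 3.09 TPM for Psmb3 to 12.9 TPM for Psmb1 and a median of 5.50 TPM. The class had 162, 56 and 109 counts, against 447, 348 and 335 for the 3 immunoproteasome genes. Psmb1, a beta subunit without catalytic activity, had 30, 5 and 22 counts, and Psmb4, another such subunit, had 36, 7 and 21.

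All 6 ATPases of the 19S base, Psmc1 to Psmc6, lay above 1 TPM, with a median of 15.2 TPM. Psmc3 led with 183, 127 and 109 counts and 37.6 ± 3.82 TPM (SD, n = 3), followed by Psmc1 with 73, 27 and 43 counts and 21.9 ± 8.09 TPM. Psmc2, with the lowest mean, was at 3.62 ± 0.92 TPM.

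Among the 11 non-ATPase subunits of the 19S particle 9 were above 1 TPM, with a median of 4.88 TPM. Psmd7, a lid subunit that pairs with the deubiquitinase Psmd14, had 503, 215 and 185 counts, or 133.2, 69.4 and 69.0 TPM. Its mean of 90.5 ± 36.9 TPM was the highest of any proteasome gene, and in each library it lay above Psmb9, the next in order. Psmd7 has no exon annotated on its other strand, and the nearest gene there, Wwp2, is 21786 bases away. Psmd14 had 27, 9 and 22 counts, or 5.73, 2.33 and 6.58 TPM. Psmd11 and Psmd6 did not pass the test, with adjusted p = 0.12 and 0.058 by limma. On average over genes, the 14 constitutive 20S subunits and the 17 subunits of the 19S particle differed by -0.20 ± 0.29 in mean log2(TPM + 0.1) (SD, n = 3), with a sign that was not the same in every library.

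The assembly factors had low levels, with class medians of 1.39 TPM for the 19S chaperones and 1.63 TPM for the 20S chaperones. The 19S chaperones Psmd5, Psmd9 and Psmd10 had means of 1.96, 0.337 and 1.39 TPM, with adjusted p = 0.094, 0.071 and 0.497 against 1 TPM by limma. Of the 20S chaperones, Psmg1 lay above 1 TPM with 7, 5 and 4 counts, while Psmg2 had 2, 5 and 3. Psmg3 had 2, 0 and 1, and its call below 1 TPM was lost or not tested when 1 replicate was left out. Psmg4 had 0, 1 and 1 counts, which is under the 3-count floor.

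Among the activators, the PA28 partners were unequal. Psme1 (PA28 alpha) had 165, 81 and 76 counts and 33.5 ± 9.78 TPM (SD, n = 3), while Psme2 (PA28 beta) had 17, 1 and 17 counts and 4.77 ± 3.95 TPM. Psme1 was higher than Psme2 in every library, without a test of that pair, and Psme1 alone of them has opposite-strand exons. Psme2b, close in name to Psme2, had 1, 0 and 2 counts, and fragments shared between them would be uncertain. Psme3, the nuclear PA28 gamma, had 71, 18 and 49 counts, and Psme4, the PA200 activator, had 16, 4 and 20 at 1.17 ± 0.83 TPM. Psmf1, the inhibitor PI31, had 7, 2 and 1 counts and 0.336 ± 0.277 TPM (adjusted p = 0.073 against 1 TPM, limma).

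For the 12 members with opposite-strand exons, the gene on the other strand held more counts in some pairs and fewer in others. The 12 opposite genes held 18699, 17360 and 13758 counts in replicates 1, 3 and 4, which was 9.15, 12.2 and 9.76 times the counts of the members themselves. Of these counts Gm20496 held 9577, 9430 and 7388 and Nek6 held 6341, 5720 and 4359, so the ratios mainly describe their pairs. With limma on levels per length, 6 of 12 members were lower than their opposite gene, where 62.1% of tested protein-coding genes were, and 3 were higher, where 26.7% were. The members' shares were thus near those of all protein-coding genes that have such exons.

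Psmb8 showed the widest gap. Its 116, 56 and 66 counts stood against 9577, 9430 and 7388 for Gm20496, an annotated antisense gene on chromosome 17 (34199316 to 34205449, minus strand, mm10). The shared bases number 186 and lie within the Psmb8 coding exons, and Gm20496 had 458 times the pooled density of Psmb8 (403 to 522). The fitted difference was -8.89 ± 0.21 (log2, SE, adjusted p = 3.07e-05, limma), lower in 3 of 3 libraries. Gm20496 also overlaps Tap2, a peptide transporter subunit, which had 33, 16 and 34 counts.

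Psmd3, a 19S lid subunit, had 88, 53 and 36 counts against 818, 623 and 592 for the noncoding Gm12356, which lies inside its span and shares 17 coding bases. Psmb7 had 34, 24 and 22 counts against 6341, 5720 and 4359 for Nek6, a mitotic kinase gene whose 3′ end overlaps it by 405 bases. Psma4 had 135, 36 and 73 counts against 1227, 976 and 791 for AY074887, which shares 114 bases before the Psma4 coding sequence. These 3 opposite genes had 162, 65.5 and 37.8 times the density of their member, with no overlap between the levels in any library.

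The remaining members called lower had smaller gaps. Psme1 shares 14 bases at its 3′ end with Emc9, a gene of the ER membrane complex with 532, 469 and 513 counts, and the difference was -2.16 ± 0.25 (log2, SE, adjusted p = 0.001, limma). Psmd9 had 7, 2 and 2 counts against 3, 11 and 4 for the lincRNA Gm26745, with -2.34 ± 0.71 (adjusted p = 0.03). The Psmd9 call was lost without replicate 3 and without replicate 4, and its counts near the floor limit it.

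Psmb9, Psmc3 and Psmc3ip were higher than their opposite genes. Tap1, the divergent neighbour that shares 212 bases before the Psmb9 coding sequence, had 59, 55 and 51 counts against the 319, 282 and 259 of Psmb9. The pooled density ratio of Psmb9 to Tap1 was 7.80 (6.60 to 9.27), with a difference of 2.94 ± 0.19 (log2, SE, adjusted p = 1.31e-04, limma) and very close values of 3.00, 2.92 and 2.91 in replicates 1, 3 and 4. Psmc3 exceeded Slc39a13, a zinc transporter gene with 9, 4 and 3 counts, by 48.9 times (29.8 to 86.4). Psmc3ip, with 905, 726 and 685 counts, exceeded Mlx, a transcription factor gene with 55, 25 and 29, by 23.4 times (19.3 to 28.6). Psmc3ip had the highest count and level of all members, at 302 ± 13.7 TPM (SD, n = 3), and its 385 shared bases lie after its coding sequence.

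Psmd13, Psmd1 and Psma5 were not called in either direction. Psmd13, opposite the deacetylase gene Sirt3, had 16, 17 and 25 counts against 63, 39 and 19, with adjusted p = 0.865 by limma. Psmd1, a 19S scaffold, had 62, 18 and 50 counts against 15, 6 and 8 for the serotonin receptor gene Htr2b (adjusted p = 0.43). Psma5 had 13, 6 and 6 against 0, 2 and 1 for 1700010K24Rik (adjusted p = 0.33). By arrangement, 3 of 5 convergent pairs had the member lower and 2 higher, and 2 of 5 divergent pairs had it lower and 1 higher. Of 2 pairs with the opposite gene inside the member's span, 1 had the member lower. Over all arrangements 62.1% of tested protein-coding genes were lower and 26.7% higher. Their shares by arrangement were not computed, so these few pairs do not compare the arrangements.

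**Figure D3:**
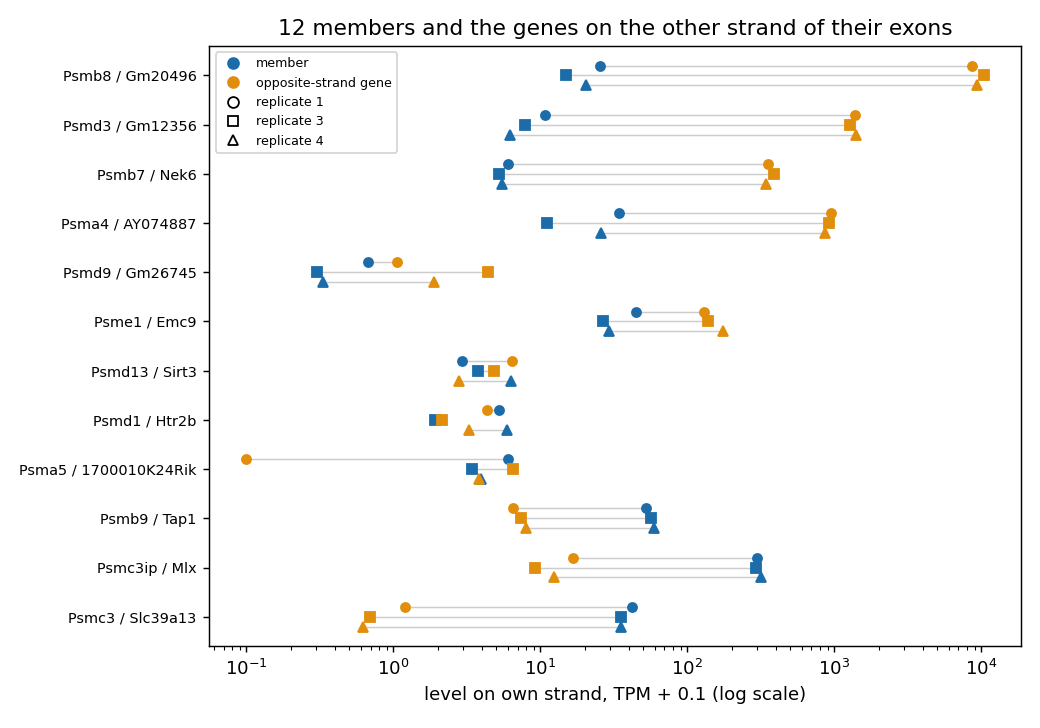
Levels on the own strand (TPM + 0.1, log axis) of the 12 members in blue and of the genes on the other strand of their exons in orange, 3 libraries per pair, ordered by the pooled ratio. The orange points of Gm20496, Gm12356, Nek6 and AY074887 lie far right of their members, while those of Tap1, Mlx and Slc39a13 lie left.

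Members with opposite-strand exons had higher own-strand levels than the other 38, by 1.63, 2.26 and 1.48 in replicates 1, 3 and 4 on the mean log2(TPM + 0.1) scale (1.79 ± 0.41, SD, n = 3). Over all protein-coding genes the same difference was 2.65 ± 0.06, and over those with at least 3 counts 1.88 ± 0.31. Where an overlap of at least 10% of exonic length was required, the difference between members fell to 0.67. Without Psmc3ip, an alternative chosen after seeing the data, it was 1.37. Of the 38 members without opposite-strand exons, 6 have spans that overlap a gene on the other strand and 9 more lie within 1000 bases of one.

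Replicate 3 had fewer member counts than the other libraries. Members held 1040.5 CPM there, against 1501.9 in replicate 1 and 1336.1 in replicate 4. Those without opposite-strand exons held 300.5, against 646.5 and 513.7, and those with them 739.9, against 855.4 and 822.4. With edgeR's quasi-likelihood test of replicate 3 against replicates 1 and 4, 10 of 38 tested members were lower, where 12.4% of all tested genes were. The variance of the lone library is taken from the other pair, so libraries are compared here and no condition.

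The 10 were Psma2, Psma3 and Psma4 of the alpha ring, Psmb1 and Psmb4 of the beta ring, Psmc6, Psmd1 and Psmd6 of the 19S particle, and the activators Psme2 and Psme3. Psme2 had 1 count in replicate 3 against 17 and 17, with a log2 fold change of -3.74 ± 1.04 (SE, adjusted p = 0.0061). Psma3 had 4 against 24 and 29 (-2.50, adjusted p = 0.0065), and Psmd6 had 3 against 22 and 21 (-2.59, adjusted p = 0.013), all by edgeR. Psmc6, a 19S ATPase, had 12 against 39 and 46 (-1.63, adjusted p = 0.019). The highest member was Psmc4 at 0.28 ± 0.62 and was not called.

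The strand class moved with these values. The median log2 fold change was -1.17 in the 28 tested members without opposite-strand exons and -0.04 in the 10 with them, against -0.82 and 0.12 over all genes of these classes and -0.11 over all genes. When scaled and tested only among genes without opposite-strand exons, a choice made after seeing the data, edgeR called 0 of 28 members lower (3 at an unadjusted p under 0.05), where 0.621% of the genes were called. The member median was then -0.34, against 0.01 for the class. For the members called lower above that were in this test, the log2 fold changes were smaller in size than before. Psme2 was at -2.96, Psmd6 at -1.77, Psma3 at -1.68 and Psmc6 at -0.80. Psmc4, not called before, went from 0.28 to 1.115. Psma4 and Psmd1, which have opposite-strand exons, were not in that test. With DESeq2 few genes of any kind were called in replicate 3, so its lack of member calls does not show that members were alike.

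**Figure D4:**
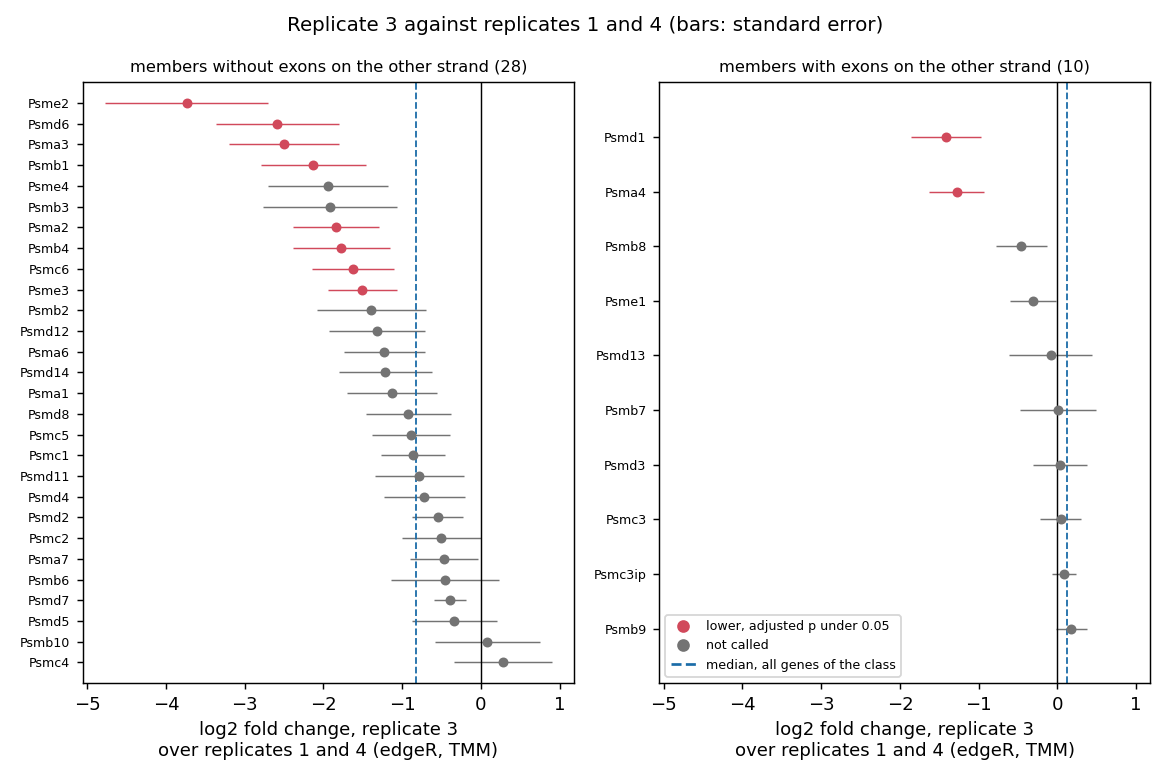
Log2 fold change of replicate 3 over replicates 1 and 4 (edgeR, TMM, bars: standard error) for 28 members without and 10 with exons on the other strand, red where the adjusted p is under 0.05. The dashed lines mark the medians of all genes of the class, -0.82 and 0.12, and the members spread round them, with Psme2 lowest at -3.74.

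For replicate 1 against replicates 3 and 4, edgeR called 0 of 38 members (2 at an unadjusted p under 0.05, where 0.0289% of all tested genes were called) and DESeq2 0. In replicate 4 edgeR called 0 of 38 (0 at an unadjusted p under 0.05, where 0.0433% of all tested genes were called) and DESeq2 0. In both tests the pair that sets the spread includes replicate 3, and few genes of any kind passed, so these counts do not show that members were alike. Psmd7 had 133.2 TPM in replicate 1 against 69.4 and 69.0 TPM, with a log2 fold change of 0.85 ± 0.26 (SE), and Psmd2, named after its values were seen, had 22.2 against 10.5 and 11.7 TPM, with 0.91 ± 0.42, both at adjusted p = 0.9997 by edgeR.

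Genes that work with the proteasome were read from lists. Of 14 partners and regulators, 6 were above 1 TPM by limma, a share near the 43.1% of all tested genes. The highest were the deubiquitinase Uchl5 at 7.22 ± 2.00 TPM, the nuclear import factor Akirin2 at 4.81 ± 1.95 and the thioredoxin-like Txnl1 at 4.24 ± 1.68 (SD, n = 3). Of 14 ubiquitin genes and shuttles, 9 were above 1 TPM, where 43.1% of all tested genes were. Among them, the ubiquitin fusion Rps27a stood at 32.7 ± 18.1 TPM with exons opposite Clhc1, and the polyubiquitin gene Ubb at 22.9 ± 15.4 TPM (SD, n = 3).

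Of 12 MHC class I processing genes, 10 were above 1 TPM, where 43.1% of all tested genes were. The highest were Calr at 68.7 ± 31.6 TPM, B2m at 59.6 ± 40.0 and the heavy chain H2-K1 at 31.6 ± 14.1 (SD, n = 3). Of 12 interferon response genes 0 were called above or below 1 TPM by limma, the only tool run for levels, with 1 at an unadjusted p under 0.05. Over all tested genes 43.1% were above and 8.31% below. Irf1, a factor that acts on immunoproteasome genes, was highest with 22, 6 and 8 counts and 2.04 ± 1.14 TPM, and has exons opposite Gm17334. Gbp2, with exons opposite Mir6381, was at 1.73 ± 1.41 TPM and Isg15 at 1.38 ± 1.75, and Cxcl10, Ifit1 and Ifit3 had 0 counts.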

How the data were processed

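The deposited values were whole fragment counts per gene, made by the authors from STAR alignments to mm10 with featureCounts 1.4.6-p4 over GENCODE vM13 exons, per the file headers. Both mates had to map and strand setting 1 was used. Per the labels the assay is total RNA sequencing, but the library protocol document is named for poly(A) RNA. A time of 72 h in the headers is not explained.

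Symbols came from GENCODE vM21 (224 of 50600 identifiers had none). Opposite-strand exons share at least 1 base with exons on the other strand (bedtools 2.31.1). Levels (log2(TPM + 0.1), genes with at least 3 pooled counts) were set against 1 TPM, and against the summed opposite genes (at least 10 pooled counts together), with limma 3.58.1. Libraries were compared with edgeR 4.0.16 (TMM, mean count of 10 or more) in R 4.3.3, DESeq2 1.42.0 being the alternative. Other pseudocounts, filters, overlaps and library sets were also tried. Adjustment was Benjamini-Hochberg over all tested genes, at 0.05. Scripts were tested on simulated data.

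Named genes are the catalytic and tissue-restricted subunits, activators and inhibitor, the 10 highest members, members with opposite-strand exons and those apart in a library, plus 3 genes per related list. Results for a few genes of the lists are not reported here. The members and lists were chosen with earlier results of these data known.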

Additional observations from a re-analysis of the deposited data

Results flagged for a closer look

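Replicate 2 was outside the comparisons because of its depth, and its values stand alone as data not used above. It held 10 member counts in 8 members, and 30 counts in the genes on the other strand of the 12 members, out of 5016 in all. The members with such exons held only 4 counts, so the opposite genes had 7.5 times as many. That ratio rests on too few counts to be compared with the 9.15, 12.2 and 9.76 of replicates 1, 3 and 4. In replicate 2 a count of 3 equals 598.1 CPM. No value was marked as an outlier in the 10 groups of 4 libraries examined.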

How the results depend on the processing

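Over 74 alternative values for 13 results, no difference between genes or gene classes changed sign. With all 4 libraries, 5 members were above 1 TPM and 2 below, where 1894 and 1876 of all 14291 tested genes were. In the main setting 6155 of 14282 genes were above, so calls above 1 TPM fell for genes of every kind. Members below 1 TPM numbered 3 with a pseudocount of 1, where 2273 of 14282 tested genes were. With no filter on low counts they numbered 2, without Psmg3, where 2854 of 17740 genes were. Without replicate 1, 3 or 4 they numbered 0, where 20 of 12828, 363 of 13478 and 91 of 13256 genes were. Psmg3 fell under the 3-count filter without replicate 1 and without replicate 4, so it was not tested there. Members above numbered 35, 40 and 34 without replicates 1, 3 and 4, where 5756 of 12828, 7447 of 13478 and 5721 of 13256 genes were. Requiring an overlap of at least 10% of exonic length left 4 members, 2 lower and 1 higher than their opposite gene. Of the 1461 protein-coding genes tested there, 872 were lower and 475 higher. The difference between the strand classes was then 0.67. With the overlap of at least 1 base kept and Psmc3ip left out, that difference was 1.37. Members lower than their opposite gene numbered 4 with all 4 libraries, where 1751 of 3876 tested protein-coding genes were. They numbered 6, 5 and 5 without replicates 1, 3 and 4, where 2273 of 3747, 2361 of 3771 and 2285 of 3792 were. For replicate 3, edgeR called fewer members with DESeq2 size factors and with no filter on low counts. No member was called by DESeq2 or by edgeR within genes without opposite-strand exons. In each of these settings fewer genes of any kind were called as well. The 10% overlap leaves fewer members to test by its construction. The cause of the other changes was not tested. Leaving out a library in the tests of a lone library would leave no residual degrees of freedom and was not run. No paired analysis was possible because the libraries form a single group.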
